A study of Mus musculus with 8 samples.

Results

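The genes described here are the adult globins and enzymes of haem synthesis, as measured by RNA-seq in medial knee cartilage of mice. The set was named by gene symbol and holds the alpha globins Hba-a1 and Hba-a2, the beta globins Hbb-bs and Hbb-bt, the alpha globin chaperone Ahsp and the haem synthesis enzymes Alas2, Alad, Urod and Fech. Of these 9 genes, 8 were matched to a row of the table, which lists 50462 gene identifiers, and Ahsp was not analysed here. The samples were cartilage caps of the medial knee, 1 library per mouse, from male wild-type C57Bl/6J mice. The 4 naive mice had no surgery and were taken at day 0, aged 11 weeks. The 4 DMM mice had the medial meniscus of the left knee destabilised at 11 weeks by cutting its tibial ligament, a surgical model of post-traumatic osteoarthritis, and were taken at day 42, aged 17 weeks. The DMM mice alone also received isoflurane anaesthesia, buprenorphine and wound clips. Sham-operated mice were not analysed here, so that surgery and the added age cannot be told apart. Within each group the mice were separate animals.

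Haemoglobin is made of alpha and beta globin chains, each holding a haem group that binds oxygen, and red cell precursors fill themselves with its messenger RNA as they mature in the bone marrow. Haem is built in a chain of enzyme steps that starts and ends in the mitochondrion and passes through the cytosol in between. Red cell precursors use their own form of the first enzyme, Alas2, whereas other cells use Alas1, and every cell that makes haem uses the later enzymes. Mature cartilage has no blood vessels, while the bone beneath it holds marrow. In bulk tissue, fewer cells of a type and less RNA per cell cannot be told apart, and this applies to every level below.

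The paralogous globins are shown first because their sequences decide how far they can be read apart. The coding regions of Hba-a1 (chr11:32283511-32284465, plus strand, GRCm38) and Hba-a2 (chr11:32296489-32297298, plus strand) are 426 bases long and differed at 1 base, base 381 counted from the first base of the start codon. Coding bases 351 to 410 are given here, with the differing base in capitals, from the GENCODE vM21 transcripts.
Hba-a1: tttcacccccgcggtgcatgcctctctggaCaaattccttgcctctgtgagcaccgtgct
Hba-a2: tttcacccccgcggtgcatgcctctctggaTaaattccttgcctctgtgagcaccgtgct
Likewise, the 441-base coding regions of Hbb-bs (chr7:103826534-103828096, minus strand) and Hbb-bt (chr7:103812524-103813996, minus strand) differed at 1 base, base 417, shown in capitals within coding bases 382 to 441 and read along the gene.
Hbb-bs: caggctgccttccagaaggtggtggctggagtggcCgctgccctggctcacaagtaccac
Hbb-bt: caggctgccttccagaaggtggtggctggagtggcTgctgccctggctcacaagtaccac
Neither difference changed the protein. Over their whole annotated transcripts, 92.6% of the 31-base words of Hba-a2 and 75.5% of those of Hba-a1 also occurred in another gene. The shares were 54.4% for Hbb-bs and 59.4% for Hbb-bt, in each case with the other beta globin as the partner. Reads from these stretches were divided between the paralogs by estimation, so that the split within a pair is uncertain and the sum of a pair is the firmer value. The enzymes were less affected, with 13.05% of the words shared for Alas2, mostly with the gene Apex2, 6.81% for Fech, 2.11% for Urod and none for Alad.

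Total estimated counts lay between 12479443 and 16548002 per library. Across all genes, 18422 received an adjusted p (adjusted over all genes tested), of which 1376 were called higher and 1050 lower in DMM at an adjusted p no higher than 0.05 with at least 1.5-fold change. A call below always means these thresholds in the DESeq2 fit of all 8 libraries. Among the DMM libraries, DMM replicate 3 stood apart in the genes described here, with levels 1.52 to 3.99 times the mean of the other 3 DMM libraries. Results are therefore also given without this library. As it was set aside for its high level in these same genes, values without it are a description and no added evidence.

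In DMM cartilage, 6 of the 8 measured genes were called lower and none was called higher. Among all genes tested, 5.7% were called lower and 7.47% higher. The set was chosen with earlier results of these data known, so that this contrast is a description. The 6 were both alpha globins, Hbb-bt, Alas2, Urod and Fech, with levels in naive cartilage 1.6 to 2.36 times those in DMM. Hbb-bs and Alad did not pass the test. The median log2-fold change of the 8 genes was -1.02 beside -0.014 over all genes tested. Leaving out 1 library at a time, between 4 and 8 genes were called lower, with 4 without naive replicate 1 or 2 or DMM replicate 1 or 4. All 8 were called without DMM replicate 3, where 6.25% of all genes tested were called lower, but that library was set aside for its high level in these same genes, so that this count is a description and no added evidence.

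The alpha globins had the larger fold changes among the globins, and their balance with the beta globins is tested below within libraries. Hba-a1 had 41572, 51836, 30773 and 29211 normalised counts in naive replicates 1 to 4 and 13833, 12521, 26222 and 12476 in DMM replicates 1 to 4. It was the only one of the 8 genes for which every DMM library lay below every naive library, as was the case for 9.96% of all genes tested. This separation rests on the uncertain split of reads with Hba-a2. The log2-fold change of Hba-a1 was -1.24 (SE 0.356, adjusted p = 0.00474), a level 2.36-fold higher in naive cartilage. The call was kept whichever library was left out. Hba-a2 had 94351, 107327, 63957 and 52867 normalised counts in naive mice and 28549, 26769, 59693 and 32043 in DMM mice. The groups overlapped because DMM replicate 3 lay above naive replicate 4, and the other DMM libraries lay below every naive library. The log2-fold change of Hba-a2 was -1.11 (SE 0.381, adjusted p = 0.0208), and the call was lost when naive replicate 1 or 2 or DMM replicate 1, 2 or 4 was left out, with adjusted p between 0.069 and 0.107.

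The beta globins had a like pattern across libraries. Hbb-bs had 58767, 76914, 41217 and 37039 normalised counts in naive mice and 21622, 21147, 47706 and 20013 in DMM mice. Here DMM replicate 3 exceeded naive replicates 3 and 4. The log2-fold change of -0.95 (SE 0.428) did not pass the test (adjusted p = 0.0957). Without DMM replicate 3 it was -1.35 (adjusted p = 1.34e-07), a description only, since that library was set aside for its high level. Hbb-bt had 27152, 33866, 18343 and 16443 normalised counts in naive mice and 10526, 9204, 17422 and 8514 in DMM mice, with DMM replicate 3 above naive replicate 4 alone. It was called lower with a log2-fold change of -1.07 (SE 0.355, adjusted p = 0.0169). That call was lost without naive replicate 1 (adjusted p = 0.09) or without DMM replicate 1 (adjusted p = 0.068).

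**Figure D1:**
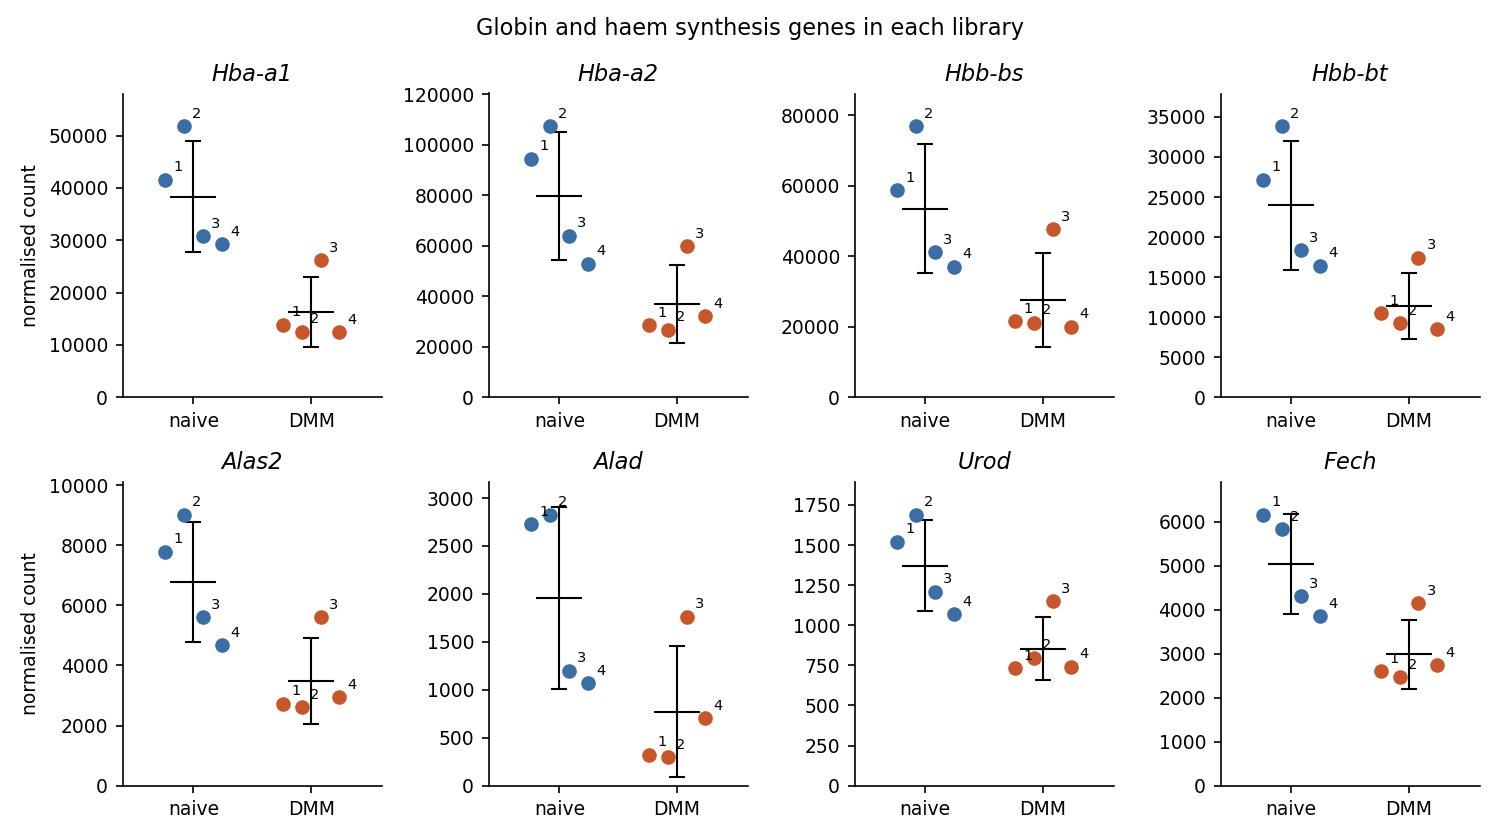
Normalised counts of the 8 measured genes in each library (points, numbered by replicate) of naive (blue) and DMM (orange) cartilage, with the mean (long bar) and SD (whiskers) of 4 mice per group. The vertical axes start at 0 and differ between panels. DMM replicate 3 is the highest DMM library in all 8 panels, and naive replicates 1 and 2 lie above naive replicates 3 and 4.

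Summing each pair removed the uncertain split. Alpha globin, Hba-a1 and Hba-a2 together, was called lower with a log2-fold change of -1.15 (SE 0.371, adjusted p = 0.0131), a 2.22-fold higher level in naive cartilage. The call for alpha globin was lost without naive replicate 1 (adjusted p = 0.0753), naive replicate 2 (adjusted p = 0.0757) or DMM replicate 1 (adjusted p = 0.0559). As a share of all counts, summed alpha globin overlapped between the groups, with 0.631% in DMM replicate 3 and 0.570% in naive replicate 4. Beta globin, Hbb-bs and Hbb-bt together, had a log2-fold change of -0.99 (SE 0.405) and did not pass the test (adjusted p = 0.0633). Beta globin was called without naive replicate 4 (adjusted p = 0.041) and without DMM replicate 3 (adjusted p = 1.61e-07). The value without DMM replicate 3 is a description, since that library was set aside for its high level in these genes. Together the 4 adult globins held 1.554%, 1.607%, 1.073% and 0.941% of all counts in naive replicates 1 to 4. They held 0.554%, 0.519%, 1.109% and 0.557% in DMM replicates 1 to 4. The group means were 1.29% ± 0.336 (SD, n = 4) in naive mice and 0.685% ± 0.283 (SD, n = 4) in DMM mice, and DMM replicate 3 alone overlapped the naive range. The difference did not pass a two-sided exact permutation test (p = 0.0857, and 0.143 adjusted over the 5 globin measures tested).

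The balance between the globins was compared within each library, where scaling has no part. The ratio of alpha to beta globin counts was 1.58, 1.44, 1.59 and 1.53 in naive mice and 1.32, 1.29, 1.32 and 1.56 in DMM mice. DMM replicates 1 to 3 lay below every naive library, while DMM replicate 4 lay among the naive ones. The difference on the log2 scale was -0.165 (two-sided exact permutation test, p = 0.0857, adjusted 0.143 over the same 5 measures). Leaving out 1 library at a time gave exact permutation p between 0.0286 and 0.2, with the lowest value when DMM replicate 4, the only DMM library among the naive ones, was left out. Hba-a1 made up 32.8% ± 2.07 of alpha globin in naive mice and 30.8% ± 2.02 in DMM mice (SD, n = 4; exact permutation p = 0.257, adjusted 0.321). Hbb-bt made up 30.9% ± 0.459 of beta globin in naive mice and 29.9% ± 2.46 in DMM mice (SD, n = 4; exact permutation p = 0.514, adjusted 0.514). Neither split within a pair differed beyond the spread between libraries, and the smallest two-sided p that 4 against 4 libraries allow is 0.0286.

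**Figure D2:**
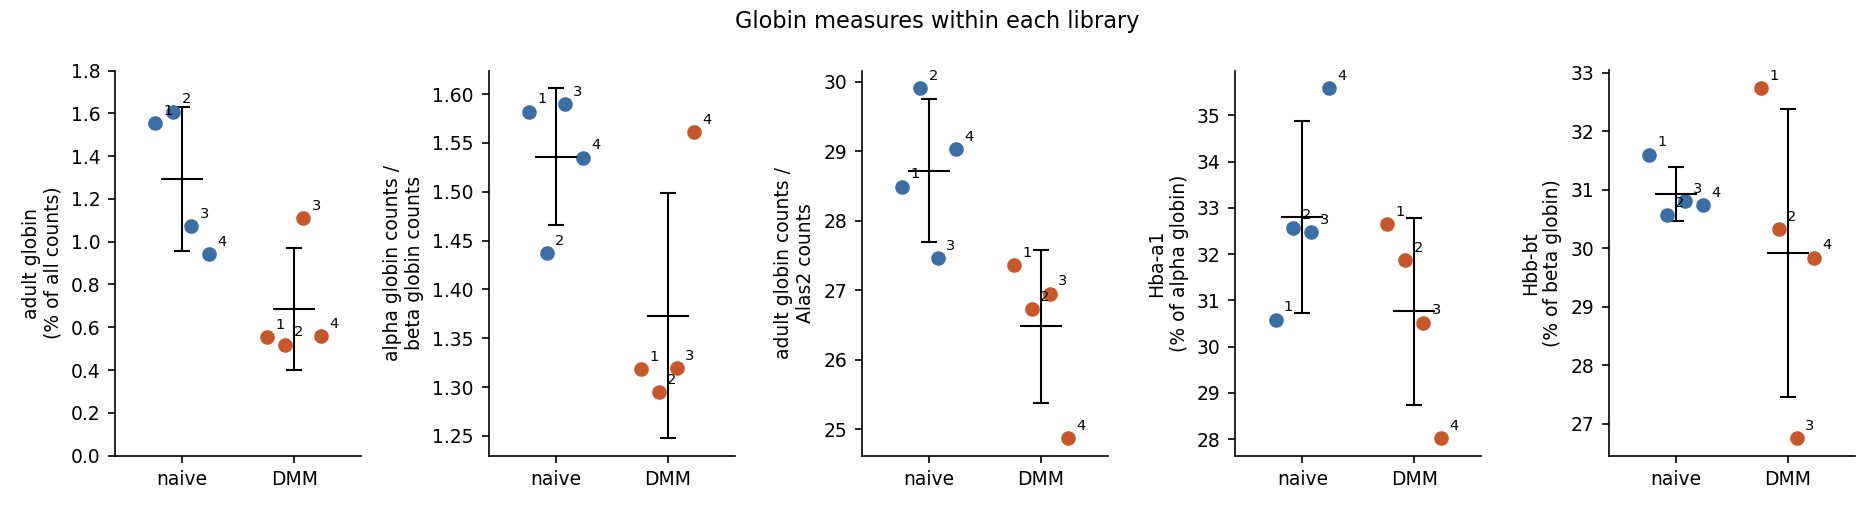
Adult globin as a percent of all estimated counts, the ratio of alpha to beta globin, the ratio of adult globin to Alas2, Hba-a1 as a percent of alpha globin and Hbb-bt as a percent of beta globin in each library (points, numbered by replicate), with the mean (long bar) and SD (whiskers) of 4 naive (blue) and 4 DMM (orange) mice. Only the first vertical axis starts at 0, and DMM replicate 3 stands apart in the globin share (1.109%) while DMM replicate 4 stands apart in the ratio of alpha to beta globin (1.56).

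Alas2 makes aminolaevulinic acid, the first and rate-limiting step of haem synthesis, in red cell precursors. The gene (chrX:150547375-150570638, plus strand) had 7786, 9025, 5619 and 4670 normalised counts in naive mice and 2724, 2605, 5605 and 2938 in DMM mice. DMM replicate 3 lay above naive replicate 4 and close to naive replicate 3, and the other DMM libraries lay below all naive ones. Its log2-fold change was -0.97 (SE 0.365, adjusted p = 0.0404). The call was lost without naive replicate 3 (adjusted p = 0.0579), without DMM replicate 4 (adjusted p = 0.112), and with no filter on low counts (adjusted p = 0.0756). Within libraries, there were 28.5, 29.9, 27.5 and 29.0 adult globin counts per Alas2 count in naive mice and 27.4, 26.7, 27.0 and 24.9 in DMM cartilage. The naive libraries all lay above the DMM libraries, by a narrow margin (difference -0.118 on the log2 scale, two-sided exact permutation p = 0.0286, adjusted 0.143), so that globin and Alas2 counts differed between groups by nearly the same factor.

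Parts of the promoters of Hba-a2 and Alas2 are shown, and whether their sequences bear on the levels above was not tested. The 2 stretches below come from RefSeq windows of 250 bases before to 50 bases after the gene start (GRCm38.p6) and end just before the annotated transcript. Capitals mark a CCAAT and an ATATAA word in Hba-a2 (chr11:32296369-32296488, plus strand), and in Alas2 (chrX:150547255-150547374, plus strand) the word TTATCT, which is AGATAA on the other strand.
Hba-a2: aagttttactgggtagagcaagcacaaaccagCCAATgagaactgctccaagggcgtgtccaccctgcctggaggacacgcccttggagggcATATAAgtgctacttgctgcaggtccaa
Alas2: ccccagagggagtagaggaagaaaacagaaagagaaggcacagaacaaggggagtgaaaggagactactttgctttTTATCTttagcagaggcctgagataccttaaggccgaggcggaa
Words were counted on both strands in the 250 bases before the start. Fech had no window and was not counted, and Alad had 2 windows that held the same kinds of word. A GATA word (AGATAA or AGATAG, or either with T in place of the first A) was present for Hba-a1, Hba-a2, Hbb-bs and Alas2 and in 26.5% of all 32851 windows. ATATAA was present for all 4 adult globins and for none of Alas2, Alad and Urod, and in 9.1% of all windows. CCAAT was present for the 4 globins, Alad and Urod and in 33.8% of windows, and CCNCNCCC for Hbb-bs, Hbb-bt, Alas2 and Alad and in 45.9%. The windows of Hba-a1 and Hba-a2 shared one unbroken stretch of 297 of their 300 bases, so that they are not independent examples. Those of Hbb-bs and Hbb-bt shared at most 14 bases in a row.

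The later enzymes are used by all cells that make haem. Alad joins aminolaevulinic acid into porphobilinogen and was the most variable of the 8 genes. Alad (chr4:62509169-62519918, minus strand) had 2728, 2828, 1199 and 1071 normalised counts in naive mice and 321.8, 299.9, 1763 and 705.8 in DMM mice, a 9.43-fold range. DMM replicate 3 lay above naive replicates 3 and 4 and was 3.99 times the mean of the other DMM libraries. The log2-fold change of -1.34 (SE 0.684) did not pass the test (adjusted p = 0.156). Without DMM replicate 3 it was -2.15 (adjusted p = 0.00136), which moved the fold from 2.53 to 4.42. That value is a description and no added evidence, since the library was set aside for its high level.

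Urod removes carboxyl groups from uroporphyrinogen to give coproporphyrinogen. Urod (chr4:116989965-116994413, minus strand) had 1520, 1690, 1210 and 1069 normalised counts in naive mice and 730.6, 798.7, 1148 and 741.9 in DMM mice, with DMM replicate 3 between naive replicates 3 and 4. Its log2-fold change was the smallest of the 8 (-0.68, SE 0.189, adjusted p = 0.00315). It fell under the 1.5-fold threshold with total count scaling (1.43-fold) and without naive replicate 2 (log2-fold change -0.57, adjusted p = 0.025). Fech, on chromosome 18, inserts iron into protoporphyrin as the last step. It had 6161, 5823, 4308 and 3846 normalised counts in naive mice and 2599, 2464, 4147 and 2739 in DMM mice. DMM replicate 3 lay between naive replicates 3 and 4 here too. Fech was called lower with a log2-fold change of -0.75 (SE 0.2, adjusted p = 0.00193) and, like Hba-a1, was called whichever library was left out.

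The enzymes were also set against Alas2 within each library, as ratios of counts. No ratio passed a two-sided exact permutation test between the groups (unadjusted p = 0.114 for Fech, 0.0857 for Urod and 0.286 for Alad). There were 1.26, 1.55, 1.30 and 1.21 Alas2 counts per Fech count in naive mice and 1.05, 1.06, 1.35 and 1.07 in DMM mice. The ratio of Alas2 to Urod was 5.12, 5.34, 4.64 and 4.37 in naive mice and 3.73, 3.26, 4.88 and 3.96 in DMM mice. In both ratios DMM replicate 3 lay within the naive range and the other DMM libraries lay below it. The ratio of Alas2 to Alad went the other way in DMM replicates 1 and 2, at 8.47 and 8.69, with 3.18 and 4.16 in DMM replicates 3 and 4 and 2.85, 3.19, 4.69 and 4.36 in naive mice. Alad was thus low relative to Alas2 in DMM replicates 1 and 2 alone.

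The libraries differed in these genes also within groups. The mean of naive replicates 1 and 2 was 1.41 (Urod) to 2.45 (Alad) times that of naive replicates 3 and 4. DMM replicate 3 exceeded the lowest naive library in 7 of the 8 genes. In RPKM (counts scaled to transcript length and to the library total), a scale on which genes can be compared, the naive means ran from Hba-a2 (9530) through Hbb-bs (5627), Hba-a1 (3636), Hbb-bt (2253), Alas2 (221), Fech (163) and Alad (107) to Urod (61.4). Within a library this order held in all 8 for every pair of neighbours but Alad and Urod, where Alad was higher in 6 of 8 libraries. The order of the globins among themselves rests on the uncertain split within each pair and on the transcript length used for each gene. Between mice the naive ranges of neighbours on this scale overlapped, except for Hba-a1 over Hbb-bt and Hbb-bt over Alas2.

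Of 10 other genes of haem synthesis and its control, 7 were called lower and none higher, with a median log2-fold change of -0.67 beside -0.014 over all genes tested. With total count scaling 2 of them, Cpox and Abcb10, were called lower. Enzymes of the pathway were among them. Uros, which makes uroporphyrinogen, was lower by a log2-fold change of -0.64 (adjusted p = 0.00767), and Cpox, which makes protoporphyrinogen from coproporphyrinogen, by -0.76 (adjusted p = 0.00181). Ppox, which oxidises it to protoporphyrin, passed at adjusted p = 0.000485 but stayed under the fold threshold with a log2-fold change of -0.55.

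The other called genes act around the enzymes. Slc25a38, the mitochondrial carrier that brings in glycine, had a log2-fold change of -0.71 (adjusted p = 0.0105), and Tmem14c, which helps the precursor into the mitochondrion, one of -0.67 (adjusted p = 0.00489). Abcb10, a mitochondrial transporter of red cell precursors, had -0.79 (adjusted p = 0.00108). Glrx5, which serves iron-sulphur cluster assembly, had -0.73 (adjusted p = 0.0044). Eif2ak1, the kinase that slows translation when haem is short, had -0.67 (adjusted p = 0.000944). Clpx, which acts on the first enzyme, did not pass the test (log2-fold change 0.066, adjusted p = 0.798).

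Alas1, the form of the first enzyme used outside red cell precursors, had 1246, 1298, 1421 and 1264 normalised counts in naive mice and 714.9, 846.0, 948.3 and 1116 in DMM mice. Its groups did not overlap, and DMM replicate 3 did not stand apart. The log2-fold change of -0.53 (SE 0.143, adjusted p = 0.0024) was under the fold threshold. The ratio of Alas2 to Alas1 counts was 6.25, 6.95, 3.95 and 3.69 in naive mice and 3.81, 3.08, 5.91 and 2.63 in DMM mice. It was high in naive replicates 1 and 2 and in DMM replicate 3. The difference between the groups did not pass a two-sided exact permutation test (unadjusted p = 0.2).

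**Figure D3:**
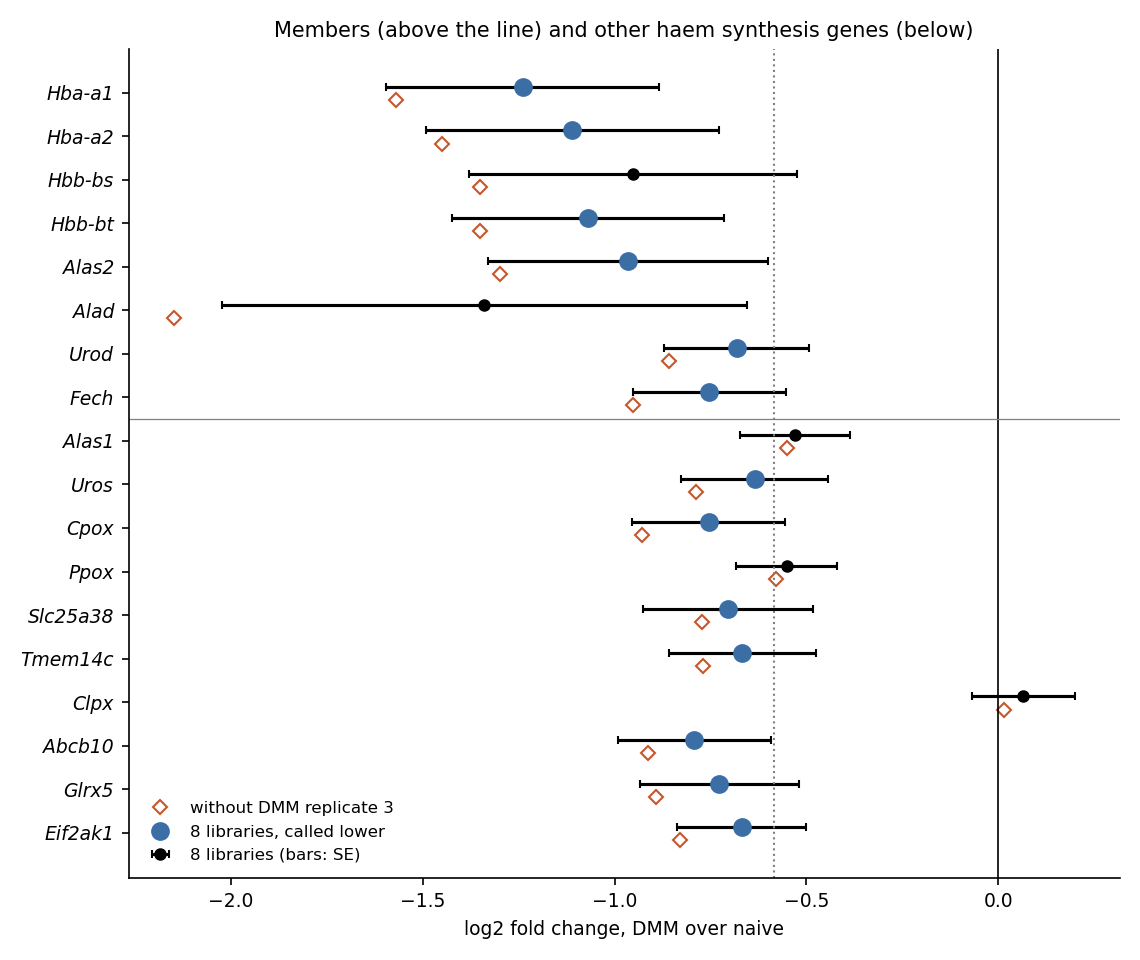
Log2-fold changes (DMM over naive) of the 8 measured genes and of 10 other haem synthesis genes, with SE bars for the fit of all 8 libraries (large blue points were called lower, small black points were not) and open diamonds for the fit without DMM replicate 3. The dotted line marks 1.5-fold. Of these genes only Clpx lies above 0 (0.066), and Alad moves most without DMM replicate 3, from -1.34 to -2.15.

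Genes of haem breakdown and transport were mixed. Of 9 tested, 3 were called lower and 1 higher, with a median log2-fold change of -0.33. Hmox1, the inducible haem oxygenase that opens the haem ring, was lower (log2-fold change -0.81, adjusted p = 0.00279), whereas its constitutive relative Hmox2 had 515.6 ± 8.07 normalised counts in naive mice and 520.0 ± 25.1 in DMM mice (SD, n = 4; log2-fold change 0.012, adjusted p = 0.958). Blvrb, a biliverdin reductase, was lower by -0.73 (adjusted p = 0.0056), and Cd163, the macrophage receptor for haemoglobin bound to haptoglobin, by -0.88 (adjusted p = 0.000131). Lrp1, a large endocytic receptor that binds haemopexin among many other ligands, was higher (log2-fold change 0.67, adjusted p = 0.00141).

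Of 12 genes of iron supply, 3 were called lower and none higher, with a median log2-fold change of -0.17. Tfr2, a transferrin receptor of liver and red cell precursors, was lower (-0.93, adjusted p = 0.00612). Slc25a37, mitoferrin, which carries iron into the mitochondrion of red cell precursors, was lower (-0.81, adjusted p = 0.0019), while its relative in other tissues, Slc25a28, was at -0.048 (adjusted p = 0.868). Ncoa4, which brings ferritin to the lysosome, was at the fold threshold (-0.59, 1.5-fold, adjusted p = 0.00887). Its call held in 4 of 8 fits that left out 1 library and was lost with edgeR (1.48-fold) and with total count scaling (1.34-fold, adjusted p = 0.0611). Tfrc, the main transferrin receptor, had a log2-fold change of -0.45 (adjusted p = 0.089) and the ferritin chains Fth1 and Ftl1 had -0.12 (adjusted p = 0.587) and -0.13 (adjusted p = 0.528). Without DMM replicate 3, 5 of the 12 were called lower, the added genes being Tfrc (-0.60, adjusted p = 0.0122) and Slc40a1, the iron exporter ferroportin (-0.67, adjusted p = 0.000462). This count too is a description, since that library was set aside for its level in the globin and haem synthesis genes.

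Of 11 other globins, 9 were matched and 2 had enough counts for an adjusted p. Cygb, cytoglobin of fibroblast-like cells, was higher in DMM (63.3, 73.2, 87.8 and 119.1 against 215.6, 126.8, 181.9 and 121.8 normalised counts, log2-fold change 0.92, SE 0.26, adjusted p = 0.00397). Hbq1b, theta globin, was lower (66.8, 66.5, 42.8 and 36.3 against 28.2, 16.1, 36.2 and 30.7 normalised counts, log2-fold change -0.92, SE 0.333, adjusted p = 0.0303). Hbq1b shared 35.7% of its 31-base words with Hbq1a, edgeR did not call it, and its call held in 3 of 8 fits that left out 1 library. The embryonic globins Hbb-bh1, Hbb-bh2, Hbb-y and Hba-x were under 3 normalised counts in every library.

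Genes of red cell precursors outside this set moved with it. Of 20 such genes, 19 were called lower and none higher, with a median log2-fold change of -0.94. All 20 were called lower without DMM replicate 3. As that library was set aside for its high level in the globin and haem synthesis genes, this count is a description and no added evidence. The list held 0.323% to 0.501% of counts in naive mice and 0.182% to 0.340% in DMM mice, with DMM replicate 3 the highest DMM library. Slc4a1, the anion exchanger of the red cell membrane, had 16469 ± 3843 normalised counts in naive mice and 8155 ± 2631 in DMM mice (SD, n = 4; log2-fold change -1.01, adjusted p = 9.98e-05). The membrane skeleton gene Sptb (log2-fold change -0.93, adjusted p = 0.000234) and the carbonic anhydrase Car2 (-0.95, adjusted p = 0.000325), which osteoclasts also express, were lower as well. DMM replicate 3 was 1.1 to 2.35 times the other DMM libraries in these genes, with a median of 1.73, against a median of 2.03 in the globin and haem synthesis set.

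Markers of other cell types were measured in the same libraries, and their part in the results above was not tested. The labels name chondrocytes, whose markers were present. Acan, Col2a1 and Comp were each called higher in DMM. Col9a1, the other fixed marker, was not called (log2-fold change -0.36, adjusted p = 0.834). Prg4, the lubricin gene of the cartilage surface, had 55406 ± 29212 normalised counts in naive mice and 38199 ± 9858 in DMM mice (SD, n = 4; adjusted p = 0.415). Of 14 chondrocyte genes tested, 6 were called higher and none lower, and 3 had a negative log2-fold change. The chondrocyte list held 0.630% to 1.09% of counts in naive mice and 1.09% to 1.62% in DMM mice. Marrow cell types were also present. Of 16 neutrophil genes, 14 were called lower and none higher, with a summed share of 0.997% to 1.37% in naive mice and 0.515% to 1.01% in DMM mice. Their most abundant genes were S100a9, Ngp and Ltf, and S100a9 had 39110 ± 8225 normalised counts in naive mice and 21782 ± 7219 in DMM mice (SD, n = 4). Of 8 megakaryocyte genes, 7 were called lower and none higher, with shares of 0.0402% to 0.0540% in naive mice and 0.0227% to 0.0294% in DMM mice. The most abundant of them were Itga2b (log2-fold change -1.03, adjusted p = 1.56e-07), Ppbp (-1.15, adjusted p = 6.75e-13) and Pf4 (-1.04, adjusted p = 9.15e-07).

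DMM replicate 3 did not stand out to the same extent in every list. In the megakaryocyte genes DMM replicate 3 lay at 0.852 to 1.3 times the other DMM libraries, and in the neutrophil genes at 0.912 to 1.51 times, whereas the globin and haem synthesis genes lay at 1.52 to 3.99 times. The other haem synthesis genes lay at 1.06 to 1.51 times, and the chondrocyte genes at 0.925 to 2.78 times. Of 11 B cell genes, led by Ebf1, Pax5 and Rag1, none was called in either direction, and their median log2-fold change was 0.43. Without DMM replicate 3, 1 of them, Rag1, was called higher. Their share of counts ran from 0.0272% to 0.0394% in naive mice and 0.0350% to 0.0757% in DMM mice. Of 11 macrophage genes 2 were called lower, and of 8 endothelial genes 3 were called higher and 1 lower, with shares of 0.0674% to 0.0804% against 0.0648% to 0.0801% for macrophage genes and 0.0415% to 0.0474% against 0.0461% to 0.0513% for endothelial genes. No defining marker of these lists was at 0 in every library.

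**Figure D4:**
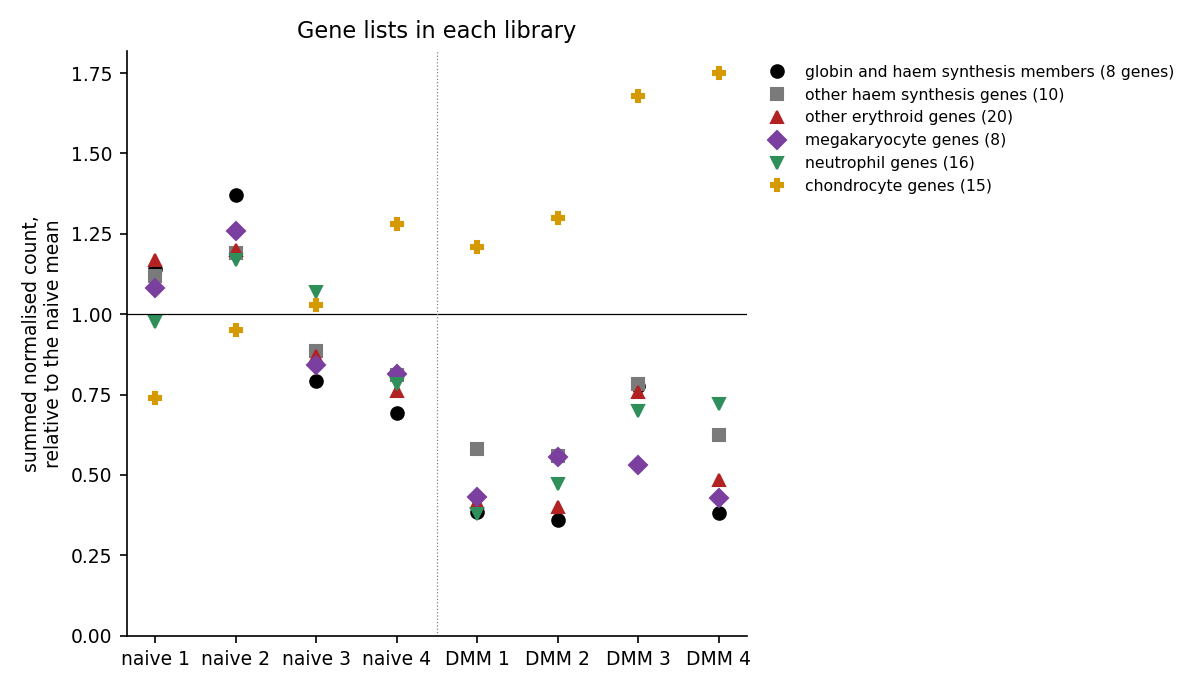
Summed normalised count of 6 gene lists in each library, relative to the mean of the 4 naive libraries (horizontal line at 1). The globin and haem synthesis genes lie at 0.384, 0.36, 0.778 and 0.381 in DMM replicates 1 to 4, the megakaryocyte genes at 0.43, 0.555, 0.53 and 0.428, and the chondrocyte genes at 1.21 to 1.75.

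The genes most like the adult globins across the 8 libraries were ranked by Pearson correlation with the mean log2 level (normalised count plus 1) of the 4 globins, among 11039 genes with a mean of 100 or more normalised counts. This ranking is a description, since libraries of the 2 groups and their depth are shared by all genes. Among genes outside the globin and haem synthesis set, Mkrn1 (0.996), Nadk2 (0.995), Dhrs11 (0.995), Tent5c (0.995) and Ppp1r15a (0.995) were highest. The ranks that follow were counted over all 11039 genes, with the 4 globins themselves included. Of the haem synthesis enzymes, Alas2 ranked 7 (0.994), Cpox 8 (0.994), Urod 15 (0.991) and Fech 43 (0.984). Alad ranked 465 (0.935), Ppox 1111 (0.884), Alas1 3187 (0.686) and Clpx 5492 (0.247). Each group was then centred on its own mean, so that only differences between mice of a group counted. The highest genes outside the set were then Isg20 (0.992), Tent5c (0.991), Dhrs11 (0.99), Creg1 (0.988) and Abhd2 (0.988). Over all genes, Alas2 was at rank 8 (0.988), Urod at 32 (0.977) and Alad at 393 (0.89).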

How the data were processed

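RNA from cartilage caps of 8 mice (4 naive, 4 DMM) was sequenced, 1 library per mouse. The deposited table holds estimated counts per gene, which the authors made by read trimming, Kallisto pseudo-alignment and summation of transcripts for each gene. Kallisto divides reads that fit several transcripts, and 39.2% of the values were not whole numbers. Counts were rounded before testing. The study's methods name GRCm38 and the labels list GRCh38, a human build. The identifiers are those of mouse genes, so a human build cannot be the reference, and which mouse build was used is uncertain. The labels and the methods also name different library kits, and whether counting used strand was not stated. Symbols were found for 48855 identifiers, which held 86.6% of counts. Coordinates and transcript lengths (the lowest-numbered coding transcript) are from GENCODE vM21.

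Groups were taken from the labels. The whole table was fitted with DESeq2 (version 1.42.0, R 4.3.3) and its Wald test, which the study's methods name for the DMM data. The fit had no covariates and used the size factors and default filters of DESeq2. P-values were adjusted by Benjamini-Hochberg over all genes. A gene was called when the adjusted p was 0.05 or lower and the change at least 1.5-fold. Normalised counts are counts divided by these size factors. Single values were compared with exact permutation tests over 70 assignments. The DESeq2, edgeR and limma-voom fits were checked on simulated counts first. Alternatives were edgeR version 4.0.16 (quasi-likelihood test), limma-voom (version 3.58.1), TMM factors, total count scaling, a minimum of 10 counts in 4 libraries, no filter, no fold threshold, the replicate number as a block and leaving out each library. Libraries of a group differed by more than counting noise (lowest chi-square per degree of freedom 8.1). Levels between genes were compared per kilobase.

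The members and gene lists were chosen with earlier results of these data known. The text names the members, genes of the haem and iron lists and other globins. Of the other lists it names the 3 most abundant genes and fixed markers. Also named are the 5 genes outside the set most correlated with the globins. Ahsp and the older beta globin symbols Hbb-b1 and Hbb-b2 had no match and were not analysed here. Some genes of haem synthesis are not reported here.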

Additional observations from a re-analysis of the deposited data

Results flagged for a closer look

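In groups of 4 libraries, a value far from the others (Dixon's test at the 95% level) was found in 8 of 26 groups tested, where chance gives about 1.3. The 26 groups share libraries and genes and are not independent. In 7 of the 8 cases the distant value was DMM replicate 3, which lay above the other DMM libraries. Its normalised count was 26222 for Hba-a1 (12476 to 13833 in the others), 59693 for Hba-a2 (26769 to 32043) and 47706 for Hbb-bs (20013 to 21622). For the enzymes it was 5605 for Alas2 (2605 to 2938), 1148 for Urod (730.6 to 798.7) and 4147 for Fech (2464 to 2739). The adult globins took 1.109% of counts in DMM replicate 3 and 0.519% to 0.557% in the other DMM libraries. The other case was the log2 ratio of alpha to beta globin in DMM replicate 4, at 0.642 against 0.372 to 0.400 in the other DMM libraries.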

How the results depend on the processing

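Of the 8 measured genes, 4 to 8 were called lower across the alternatives, with 8 without DMM replicate 3 and 4 without naive replicate 1 or 2 or DMM replicate 1 or 4. edgeR called 6, limma-voom 7, TMM factors 6, total count scaling 5 and no filter 5. Every fold change of these genes was negative in each alternative run. With total counts as size factors, the median over all genes went from -0.014 to 0.138 on the log2 scale and that of the 8 genes from -1.02 to -0.85. The replicate numbers did not pair the libraries (correlations of deviations between -0.119 and 0.117), and with the replicate number as a block 4 genes were called instead of 6, without Hba-a2 (adjusted p = 0.124) and Alas2 (adjusted p = 0.0591), with 2076 genes called in all instead of 2426. Leaving out 1 library at a time, the log2-fold change of summed alpha globin lay between -1.49 and -0.98 and was not called in 3 of 8 cases, and that of summed beta globin lay between -1.35 and -0.77 and was called in 2 of 8. The alpha to beta ratio differed by -0.228 to -0.138 (log2). The difference in the Hbb-bt share of beta globin lay between -1.96 percentage points (DMM replicate 1 left out) and 0.0416 (DMM replicate 3 left out), where its sign turned. The globin to Alas2 ratio differed by -0.139 to -0.0879 (log2) with no overlap of the groups in any case, and its exact p was 0.0571 in 6 of the 8 cases and 0.0286 in the other two. The causes were not tested. With 4 mice a group, fold changes with SE of 0.355 or more (the globins, Alas2 and Alad) had the least precise values, at 299.9 or more normalised counts in every library.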
